A study of Saccharomyces cerevisiae with 26 samples.

Results

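The mitochondrial ribosomal protein genes described here are 53 nuclear genes of Saccharomyces cerevisiae whose names begin with MRPL, MRPS or RSM, taken by their systematic identifiers from a table of read counts for 6692 open reading frames. Of the 53 genes, 34 encode proteins of the large subunit (21 with a bacterial counterpart and 13 found in mitochondria only) and 19 encode proteins of the small subunit (11 and 8 of the same kinds). The choice of genes rests on their names and used no measured value. Poly-A RNA was sequenced from whole cells of 8 groups, 26 libraries in all. The groups in oxidative medium, in which ethanol and glycerol replace glucose (SCEG), were H3A110Ccup1F8* (4 libraries), cup1F8* (4), H3A110Cgsh1Δ (3), gsh1Δ (3), H3A110C (3) and WT (3). In fermentative glucose medium (SC) they were H3A110C (3) and WT (3). All strains derive from BY4741 and have a rebuilt HHT2 histone locus. H3A110C is the replacement of the alanine of histone H3 by a cysteine in both HHT1 and HHT2, gsh1Δ is the deletion of the gene for the first enzyme of glutathione synthesis, and cup1F8* is a stop codon in every copy of the metallothionein gene CUP1. Cultures were collected after 2 to 3 doublings. Whether glutathione was added to the gsh1Δ cultures is not given in the sources used here.

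The mitochondrial ribosome translates the few proteins encoded by mitochondrial DNA, which are core subunits of the respiratory chain and of the ATP synthase and 1 protein of the ribosome itself. All its other proteins are made in the cytosol from nuclear genes and imported, and they assemble on the large and the small mitochondrial rRNA. In yeast these nuclear mRNAs are known targets of Puf3, an RNA-binding protein that acts through a short motif after the stop codon and couples the stability and translation of the mRNAs to the carbon source.

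The motif TGTANATA (N stands for any base) was found on the sense strand within the 250 bases after the stop codon of 52 of the 53 genes (98.1%), against 909 of all 5986 annotated coding genes (15.2%). On the opposite strand of the same window it was found in 20.8% of the mitochondrial ribosomal protein genes and in 14.6% of all genes. All 34 large subunit genes and 18 of 19 small subunit genes had it, the exception being RSM22. A C stood 2 bases before the motif in 43 of the 53 genes (81.1%), against 4.46% of all genes. A match is a description of the letters and not a measured binding site. The first copies of 6 genes whose values are given below are printed because they carry the feature these genes share. They are read 5′ to 3′ on the coding strand of the RefSeq R64 assembly, with the motif in capitals. In order they lie at chrXII:1015468-1015495 (plus strand), chrXIII:251208-251235 (minus strand), chrXIII:842250-842277 (plus strand), chrVII:637009-637036 (minus strand), chrVII:830213-830240 (plus strand) and chrIV:1438037-1438064 (plus strand), and their motifs start 28, 79, 58, 78, 70 and 32 bases after the stop codon.
MRPL4: ccctctctccTGTAAATAtatatatata
MRPL39: tcatttatccTGTAAATAagtaatggat
MRPL33: gacttatataTGTATATAgtattatttt
MRPL25: tgtctaatcaTGTAAATAattttgtgat
MRPS35: cattattactTGTACATAaaatattcta
RSM28: cttacataccTGTAAATAtctagtacgt

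Over the 52 genes the first copy began 8 to 139 bases after the stop codon (median 52.5), and in 48 of them within 100 bases. One copy was present in 39 genes, 2 copies in 11 and 3 in 2, which makes 67 copies in all. In the 300 bases before the start codon, AATTTT was present on either strand in 35.8% of these genes and in 54.1% of all genes, and CCAAT, the core of the sequence bound by the Hap complex, in 37.7% and in 41.8%. The genes lie on 14 chromosomes, and 52 of 53 have 1 coding exon. Their coding lengths ran between 213 and 1887 bases (median 714) and their GC content between 36.2% and 52.0% (median 39.7%).

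**Figure D1:**
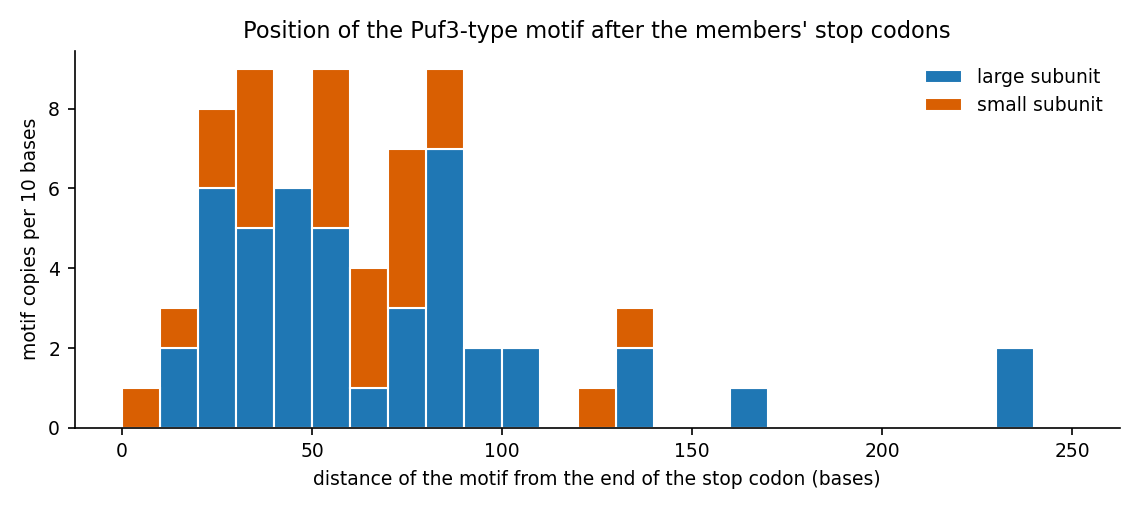
Distance from the end of the stop codon to each of the 67 copies of TGTANATA in 52 mitochondrial ribosomal protein genes (x axis, bases, in bins of 10; y axis, number of copies), stacked by subunit. Most copies lie within 100 bases of the stop codon, and the first copies have a median distance of 52.5 bases.

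Libraries held 2917138 to 10133258 counts in SCEG and 9428849 to 12305863 in SC. Levels are given as CPM, a gene's read count relative to the total of its library scaled over all 26 libraries, and 3 counts, taken as the floor, correspond to at most 1.03 CPM in SCEG and 0.318 CPM in SC. GSH1 had 0 counts in all 6 gsh1Δ and H3A110Cgsh1Δ libraries, against 107 to 149 CPM in WT in SCEG. No SCEG library, also not those of WT, held a read for CUP1-1 or CUP1-2, so their counts do not check the cup1F8* label, which is in any case a stop codon. In SC these genes had means of 79.7 and 39.3 CPM. Both have a neighbouring open reading frame and belong to the genes without SCEG counts described below, so their 0 counts are not read as absent expression. MIC19 was higher in H3A110C than in WT in SC by 2.85 ± 0.13 and in SCEG by 2.25 ± 0.15 (log2 ± SE, edgeR adjusted p = 0.0040 and 5.2e-04). The 2 SC libraries with the letter B in the count table stood apart from A and C of their strain, as did replicate 2 of H3A110Cgsh1Δ, and values without them are given below where they bear on a result. No label names a sequencing batch. The numbers S7 and S8 at the end of the sample descriptions occur both in H3A110Cgsh1Δ and in H3A110Ccup1F8*, and the cup1F8* strains were numbered after the other SCEG libraries in the count table. If they were sequenced apart from WT, such a batch and the strain cannot be told apart in cup1F8* against WT. The SC libraries were also deeper, with 9675927 to 12305863 counts in WT, against 3915432 to 5096081 in WT in SCEG. If the 2 media were sequenced or processed apart, that difference and the medium cannot be told apart in SCEG against SC.

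Apart from MRPL38, the mitochondrial ribosomal protein genes were measured well above the floor in every library, at 14.8 to 217 CPM in SCEG and 21.5 to 121 CPM in SC. Divided by coding length, the highest levels in WT in SCEG were those of RSM19 (YNR037C), MRPL39 (YML009C) and MRPS16 (YPL013C), the counterparts of the bacterial proteins S19, L33 and S16, with 288 ± 20.9, 277 ± 19.7 and 261 ± 15.1 CPM per kb (SD, n = 3). These 3 levels differed by about as much as their spread. The lowest were MRPL51 (YPR100W) with 63.7 ± 16.1, RSM22 (YKL155C), a methyltransferase-like protein of the small subunit, with 50.6 ± 3.85, and MRPL38 (YKL170W), the counterpart of bacterial L14, with 3.03 ± 1.51 CPM per kb. In SC, MRPL51 and MRPL38 had means of 61.7 and 51.2 CPM, against 20.8 and 1.26 over the SCEG libraries of all strains. Both have a neighbouring open reading frame, as described below, and so has MRPL39. The ranks of MRPL51, MRPL38 and MRPL39 are therefore given for SCEG only. The median in WT in SCEG was 137 CPM per kb over the large and 126 over the small subunit genes.

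The first comparison asks how expression differs between the oxidative and the fermentative medium. In WT, SCEG gave 49 of the 53 genes above SC and 2 below it (edgeR quasi-likelihood test, Benjamini-Hochberg adjusted p below 0.05, here called). Over all 5816 genes tested, 25.6% were called higher and 25.3% lower. The 49 include 7 of 11 genes with a neighbouring open reading frame, whose medium difference is given as a value only, as described below. The median log2 fold change was 0.74 over the mitochondrial ribosomal protein genes and 0.00 over all genes. The 49 genes that rose did so 1.31-fold to 2.67-fold, and in each of them the CPM of the 3 SCEG libraries lay above those of the 3 SC libraries. Here and below, such separation was counted over the mitochondrial ribosomal protein genes only, with no share over all genes. Among genes already called it describes the values and is no further support for the call. Both subunits rose: 31 of 34 large subunit genes were called higher and 2 lower (median 0.70), and 18 of 19 small subunit genes were called higher and 0 lower (median 0.81). These are cultures of many cells, in which a change in every cell and a larger change in some cells cannot be told apart.

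MRPL4 (YLR439W), the counterpart of bacterial L29, showed the largest rise. It had 217, 201 and 194 CPM in WT in SCEG, against 78.8, 88.3 and 70.4 CPM in WT in SC (log2 fold change 1.42 ± 0.11 SE, edgeR adjusted p = 1.1e-04). No SCEG library came near an SC library. RSM19 had 83.9, 81.5 and 72.9 CPM in SCEG, against 35.2, 37.1 and 36.6 CPM in SC (1.18 ± 0.10, edgeR adjusted p = 1.8e-04). MRPS18 (YNL306W), the counterpart of bacterial S11, had 171, 157 and 159 CPM in SCEG, against 80.7, 67.7 and 82.2 CPM in SC (1.13 ± 0.11). MRPL16 (YBL038W), a counterpart of the bacterial protein of the same number, rose by about as much (1.11 ± 0.09). It has a neighbouring open reading frame, as described below, and is given as a value only. With MRPL4, RSM19 and MRPS18, both subunits supplied genes near the top of the range. The smaller rises included MRPL36 (YBR122C), the counterpart of bacterial L31, with 98.4, 110 and 94.8 CPM in SCEG, against 77.4, 81.5 and 75.1 CPM in SC (0.43 ± 0.10, edgeR adjusted p = 0.013). It was no longer called without WT library C in SC (edgeR adjusted p = 0.051). RSM22 had 91.0, 104 and 91.5 CPM in SCEG, against 64.3, 41.3 and 72.4 CPM in SC (0.74 ± 0.21, edgeR adjusted p = 0.023), its lowest SC value being library B. It was not called when any 1 of the 3 SCEG libraries was left out (edgeR adjusted p = 0.055 to 0.077).

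In H3A110C, SCEG gave 49 of 53 genes above SC and 3 below it, against 23.8% and 23.4% of all 5795 genes tested. The median log2 fold change was 0.84, with 0.83 over the large and 0.88 over the small subunit genes, and the called rises were 1.26-fold to 2.78-fold. The same 49 genes were called higher in both strains, and this overlap was not counted over all genes. MRPL4 again led, with 205, 183 and 212 CPM in H3A110C in SCEG, against 72.8, 80.0 and 72.8 CPM in H3A110C in SC (1.48 ± 0.10, edgeR adjusted p = 6.8e-05). MRPS17 (YMR188C), the counterpart of bacterial S17, had 106, 116 and 119 CPM in SCEG, against 45.3, 55.1 and 45.4 CPM in SC (1.29 ± 0.12). MRPL10 (YNL284C), the counterpart of bacterial L15, had 158, 161 and 151 CPM in SCEG, against 74.6, 76.3 and 75.9 CPM in SC (1.12 ± 0.08). MRPL10 also has a neighbouring open reading frame, and its medium difference is likewise given as a value only. Without both SC libraries of letter B, 49 genes were called higher and 3 lower in WT and the same numbers in H3A110C. When libraries were scaled by their total counts alone, the median over all genes moved to 0.20 in WT and 0.22 in H3A110C, the mitochondrial ribosomal protein genes stayed 0.73 and 0.83 above it, and the share of calls that were higher over all genes moved to 67.4% and 69.9%, against 50.3% and 50.5% with the main scaling.

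**Figure D2:**
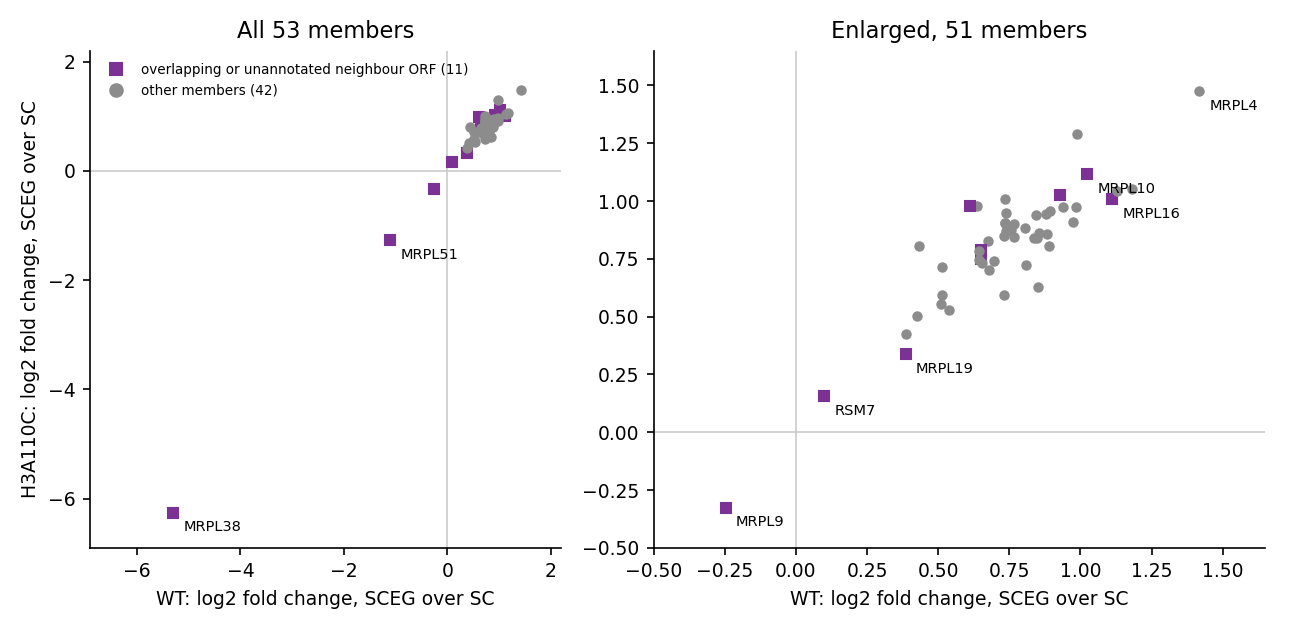
Log2 fold change, SCEG over SC, in H3A110C (y axis) against WT (x axis) for all 53 mitochondrial ribosomal protein genes (left) and enlarged for 51 (right). Purple squares are the 11 genes with an overlapping or unannotated neighbouring open reading frame and grey circles the other 42, which were all called higher in both strains.

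The genes that went the other way share a feature of the count table. MRPL38 had 0.992, 0.820 and 1.98 CPM in WT in SCEG, against 47.3, 53.2 and 52.6 CPM in WT in SC (-5.31 ± 0.26, edgeR adjusted p = 1.8e-05). Over all strains it had 1 to 36 counts in the 20 SCEG libraries and 377 to 574 in the 6 SC libraries. MRPL51, a large subunit protein without a bacterial counterpart, had 33.1, 19.7 and 28.0 CPM in WT in SCEG, against 64.6, 58.3 and 57.8 CPM in WT in SC (-1.11 ± 0.19, edgeR adjusted p = 0.0027). It fell likewise in H3A110C, by 1.27 on the log2 scale. MRPL9 (YGR220C), the counterpart of bacterial L3, had 70.5, 57.5 and 70.1 CPM in H3A110C in SCEG, against 87.6, 84.9 and 87.4 CPM in H3A110C in SC (-0.33 ± 0.11, edgeR adjusted p = 0.049). In WT it was not called (-0.25, edgeR adjusted p = 0.082), and in H3A110C it was called in only 1 of the 6 fits that left out a library. RSM7 (YJR113C), the counterpart of bacterial S7 and chosen after its values were seen, was called in neither strain (0.10 in WT and 0.16 in H3A110C).

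These 4 genes are among 11 whose coding sequence overlaps, or lies beside, another counted open reading frame, in most cases a dubious one that the reference does not annotate. Such unannotated neighbours are YKL169C for MRPL38, YGR219W for MRPL9 and YJR114W for RSM7. The neighbour of MRPL51, YPR099C, overlaps it and is annotated. Of the 11, 7 were called higher in WT and 2 lower (median 0.61), and 7 higher and 3 lower in H3A110C (median 0.75). All of the other 42 genes were called higher in both strains (median 0.75 in WT and 0.85 in H3A110C). MRPL10, MRPL16 and MRPL39 are among the 7 that were higher. The neighbour YKL169C had at most 29 counts in an SCEG library and 3 to 11 in an SC library. Genes outside the mitochondrial ribosome showed the same feature. Such a neighbour was found for 26 of the 32 genes (81.2%) whose mean in SCEG was under 1/20 of that in SC, against 783 (16.8%) of all 4666 annotated genes with a mean of at least 20 CPM in SC. All 10 of the 4666 genes with 0 counts in all 20 SCEG libraries have one. They include CUP1-1 and CUP1-2. Also among them are HYP2, which encodes the translation factor eIF5A, and RPL39 of the cytosolic ribosome (both chosen after their values were seen). Whether reads over such pairs were counted by another rule in the 2 media was not tested, and the medium difference of the 11 genes is therefore given as a value only.

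**Figure D3:**
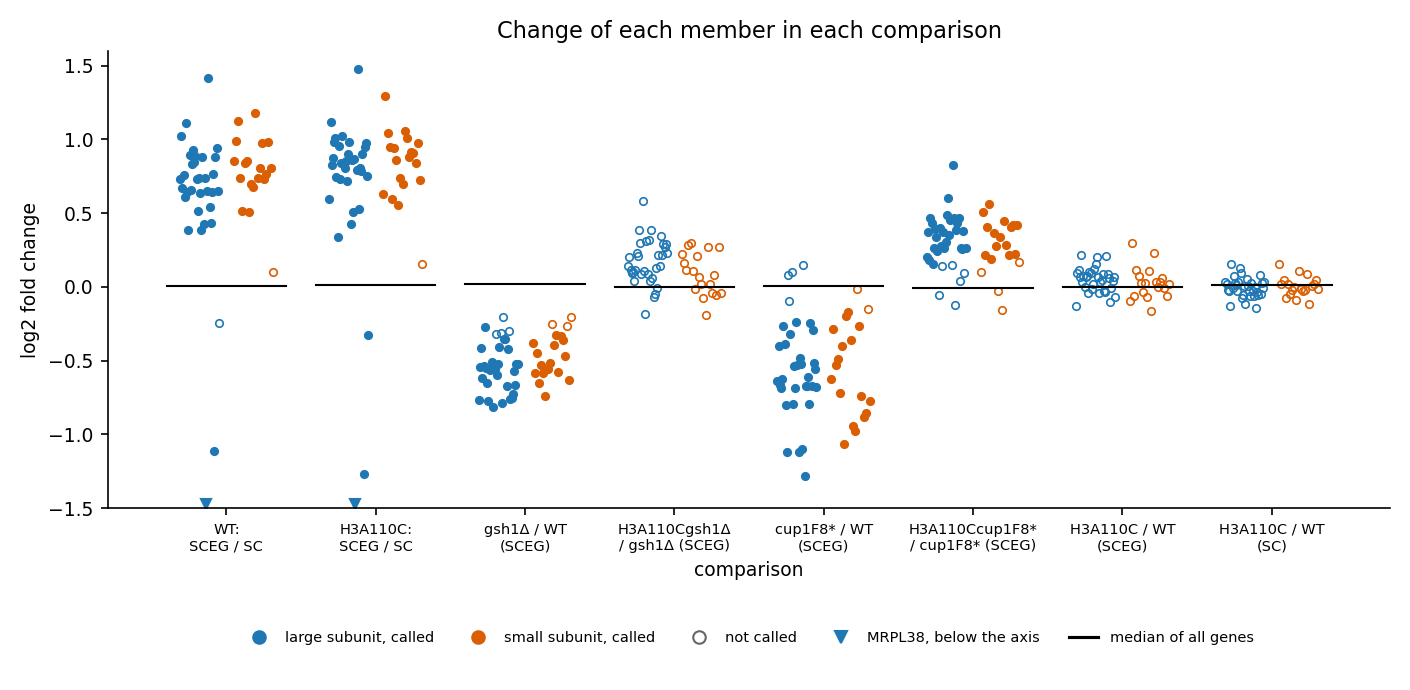
Log2 fold change of each mitochondrial ribosomal protein gene in the 8 pairwise comparisons, with the group named first over the second, large subunit in blue and small subunit in orange. Filled points were called (edgeR adjusted p below 0.05), open points were not, triangles are MRPL38 below the axis, and lines mark the median of all genes tested. Most points lie above the line in both medium comparisons. All lie below it in gsh1Δ and most in cup1F8*, and most lie above it again in H3A110Ccup1F8* against cup1F8*.

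The next comparison concerns the histone mutation by itself. In SC, 0 of 53 genes were higher and 0 lower in H3A110C than in WT by edgeR, 0 had an unadjusted p below 0.05, and DESeq2 called 0. Over all 5737 genes tested, 0.0174% were called higher and 0% lower, and by unadjusted p below 0.05, 12 were higher and 12 lower. That is far fewer than chance alone gives at this threshold, so the test in SC could have missed small changes. With library B of WT or of H3A110C left out, edgeR also called 0 of the 53 genes in either direction. The log2 fold changes lay between -0.14 and 0.16 with a median of 0.00. The largest was that of MRPL16, with 61.9, 60.5 and 58.8 CPM in H3A110C, against 56.2, 54.2 and 53.5 CPM in WT (0.16 ± 0.08, edgeR adjusted p = 1.0). These 2 sets of values did not overlap, while those of MRPS16 did, with 57.3, 64.9 and 59.1 CPM in H3A110C, against 58.7, 50.4 and 55.4 CPM in WT (0.15 ± 0.11). In SCEG, 52 genes passed the filter on low counts, and edgeR called 0 higher and 0 lower in H3A110C, against 0.0176% of all 5671 genes tested in each direction. By unadjusted p below 0.05, 2 were higher and 0 lower, against 146 and 194 of all 5671 genes, and DESeq2 called 0. The median was 0.04 and the range -0.16 to 0.30. MRPS17 had 106, 116 and 119 CPM in H3A110C, against 90.3, 94.7 and 93.5 CPM in WT (0.30 ± 0.09, edgeR adjusted p = 0.56). RSM22 had 108, 110 and 117 CPM in H3A110C, against 91.0, 104 and 91.5 CPM in WT (0.23 ± 0.09, edgeR adjusted p = 0.74). In both genes the 3 H3A110C values were above the 3 WT values, and neither difference passed the test over all genes.

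The difference between the effect of H3A110C in SCEG and its effect in SC was also tested. No gene was called, 0 of 53 and 0% of all 5915 genes in either direction by edgeR, and DESeq2 called 0. An unadjusted p below 0.05 was found for 0 of the 53, against 50 higher and 62 lower estimates over all 5915 genes. This too is far fewer than chance alone gives, so small differences could have been missed. The median difference was 0.05. MRPL38 differed most (-0.97), at the low counts given above, followed by MRPL44 (YMR225C) with 0.36. MRPL44, a large subunit protein without a bacterial counterpart, had 44.0, 43.1 and 55.2 CPM in H3A110C, against 40.1, 47.1 and 36.0 CPM in WT in SCEG, and 25.9, 29.2 and 29.9 CPM in H3A110C, against 34.2, 29.3 and 31.1 CPM in WT in SC.

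The deletion of GSH1 was compared with WT in SCEG, the medium in which growth depends on respiration. Of 52 mitochondrial ribosomal protein genes tested, 0 were higher and 45 lower in gsh1Δ, against 12.5% and 12.8% of all 5678 genes tested. The median log2 fold change was -0.53, and those called had 0.568 to 0.827 times the WT level. All 52 estimates were below 0, and the values of the 3 gsh1Δ libraries lay below those of the 3 WT libraries in each of the 45 genes. The fall took in 29 of 33 large subunit genes (median -0.55) and 16 of 19 small subunit genes (median -0.47). Of the 45, 43 were among the genes called higher in SCEG than in SC in WT, a comparison that uses the same WT libraries. This overlap was not counted over all genes. MRPL25 (YGR076C), a large subunit protein without a bacterial counterpart, fell most. It had 30.5, 20.03 and 24.98 CPM in gsh1Δ, against 49.4, 43.0 and 41.9 CPM in WT (-0.82 ± 0.16, edgeR adjusted p = 0.0049). MRPL35 (YDR322W) had 73.2, 67.2 and 68.2 CPM in gsh1Δ, against 132, 117 and 114 CPM in WT (-0.78 ± 0.10, edgeR adjusted p = 3.2e-04). MRPL20 (YKR085C) had 48.0, 51.1 and 38.1 CPM in gsh1Δ, against 85.1, 72.7 and 81.4 CPM in WT (-0.78 ± 0.13). Like MRPL25, both are specific to the mitochondrial ribosome.

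Genes with bacterial counterparts fell by about as much. Of these, 27 of 31 tested were called lower in gsh1Δ (median -0.53), and 18 of 21 without a counterpart (median -0.54). MRPL4 had 121, 129 and 132 CPM in gsh1Δ, against 217, 201 and 194 CPM in WT (-0.67 ± 0.09, edgeR adjusted p = 4.1e-04). In the small subunit RSM10 (YDR041W), the counterpart of bacterial S10, had 55.0, 64.8 and 69.9 CPM in gsh1Δ, against 95.4, 92.4 and 84.6 CPM in WT (-0.52 ± 0.11). RSM26 (YJR101W), which resembles superoxide dismutases, had 73.4, 85.3 and 72.9 CPM in gsh1Δ, against 120, 107 and 97.2 CPM in WT (-0.47 ± 0.11). MRPL11 (YDL202W), the counterpart of bacterial L10, had 68.7, 69.3 and 72.9 CPM in gsh1Δ, against 91.8, 87.3 and 105 CPM in WT (-0.42 ± 0.10). Each of these genes separated the strains completely. The calls of MRPL16 (-0.27, edgeR adjusted p = 0.043) and RSM22 (-0.33, edgeR adjusted p = 0.049) were close to the threshold, and each was lost in 5 of the 6 fits that left out a library. Those of RSM26 and MRPL11 were lost without replicate 1 of gsh1Δ (edgeR adjusted p = 0.059 for both). MRPL36 (-0.21, edgeR adjusted p = 0.23) and RSM18 (YER050C; -0.25, edgeR adjusted p = 0.13) were not called. RSM18 was called lower without replicate 2 of gsh1Δ (-0.38, edgeR adjusted p = 0.042) and in a single fit of all SCEG libraries (-0.27, edgeR adjusted p = 0.038).

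H3A110Cgsh1Δ was compared with gsh1Δ in the same medium. By edgeR 0 of 52 genes were called higher and 0 lower, against 0.264% and 0.58% of all 5690 genes tested, and DESeq2 called 0. An unadjusted p below 0.05 was found for 13 higher and 0 lower estimates, against 451 and 441 of all 5690 genes tested. The median log2 fold change was 0.12 over these genes (0.14 in the large and 0.08 in the small subunit) and -0.00058 over all genes. In 24 of the 52 genes the 3 H3A110Cgsh1Δ values all lay above the 3 gsh1Δ values. This count was not made over all genes and is given as a value only. MRPL25 had 39.4, 39.2 and 35.1 CPM in H3A110Cgsh1Δ, against 30.5, 20.03 and 24.98 CPM in gsh1Δ (0.58 ± 0.17, edgeR adjusted p = 0.16). MRPL35 had 85.0, 98.5 and 90.9 CPM in H3A110Cgsh1Δ, against 73.2, 67.2 and 68.2 CPM in gsh1Δ (0.39 ± 0.11, edgeR adjusted p = 0.15). Both genes separated the groups without passing the test over all genes. RSM10 had 74.0, 57.2 and 67.9 CPM in H3A110Cgsh1Δ, against 55.0, 64.8 and 69.9 CPM in gsh1Δ (0.06 ± 0.14), and these values overlapped. In a single fit of all 20 SCEG libraries, 7 genes were called higher, MRPL25 and MRPL35 among them (edgeR adjusted p = 0.013 and 0.010). Without replicate 2 of H3A110Cgsh1Δ, which stood apart, 2 genes were called higher, MRPL25 (0.56, edgeR adjusted p = 0.0496) and MRPL22 (0.44, edgeR adjusted p = 0.015), and RSM22 was called lower (-0.39, edgeR adjusted p = 0.042). MRPL22 was chosen after its values were seen. The effect of H3A110C in gsh1Δ was tested against its effect in WT. By edgeR 0 of 52 genes differed in either direction, against 0.226% higher and 0.139% lower of all 5751 genes, and DESeq2 called 0. An unadjusted p below 0.05 was found for 7 higher and 1 lower estimate, against 428 and 376 of all 5751 genes. The median difference was 0.10, and the largest were 0.49 for MRPL25 and 0.43 for MRPL35.

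**Figure D4:**
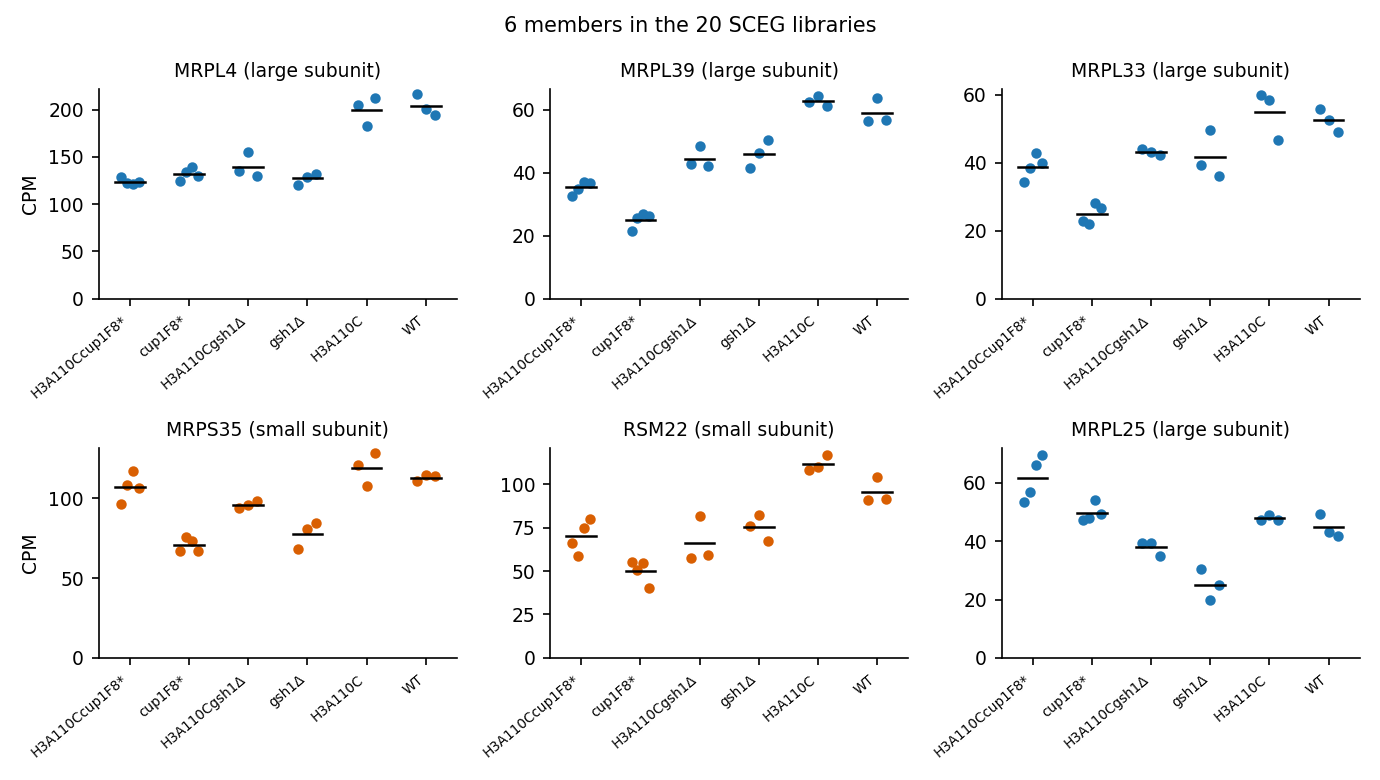
CPM of 6 mitochondrial ribosomal protein genes (y axis, from 0) in the 20 SCEG libraries by strain (x axis), with 1 point per library and a line at the mean of each strain, 4 libraries in the 2 cup1F8* strains and 3 in each of the others. MRPL4 is lower in the 4 strains with gsh1Δ or cup1F8* than in H3A110C and WT, and MRPL25 is low in gsh1Δ and H3A110Cgsh1Δ but not in cup1F8*.

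The loss of functional CUP1 was compared with WT in SCEG. Of the 53 genes, 0 were higher and 47 lower in cup1F8*, against 34.3% and 34.8% of all 5904 genes tested. The median log2 fold change was -0.56, and the called genes had 0.411 to 0.889 times the WT level. The fall again took in both subunits, 30 of 34 large subunit genes (median -0.58) and 17 of 19 small subunit genes (median -0.53). It covered 29 of 32 genes with a bacterial counterpart (median -0.52) and 18 of 21 without one (median -0.67). In 46 of the 47 called genes the 4 cup1F8* values lay below the 3 WT values. MRPL39 fell most, with 21.5, 25.6, 26.8 and 26.1 CPM in cup1F8*, against 56.5, 63.9 and 56.8 CPM in WT (-1.28 ± 0.10, edgeR adjusted p = 1.6e-06). MRPL20 had 37.0, 42.4, 37.98 and 33.8 CPM in cup1F8*, against 85.1, 72.7 and 81.4 CPM in WT (-1.12 ± 0.09, edgeR adjusted p = 2.8e-06). MRPL33 (YMR286W), the counterpart of bacterial L30, had 22.7, 22.0, 28.3 and 26.7 CPM in cup1F8*, against 55.7, 52.7 and 49.1 CPM in WT (-1.12 ± 0.11). All 3 genes had less than 1/2 of the WT mean in cup1F8*. In the small subunit RSM22 had 55.4, 50.6, 54.8 and 40.04 CPM in cup1F8*, against 91.0, 104 and 91.5 CPM in WT (-0.97 ± 0.11). RSM26 had 57.5, 56.7, 68.3 and 59.3 CPM in cup1F8*, against 120, 107 and 97.2 CPM in WT (-0.88 ± 0.09).

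Other genes stayed close to WT. MRPL25, the gene with the largest fall in gsh1Δ, had 47.2, 47.9, 54.3 and 49.3 CPM in cup1F8*, against 49.4, 43.0 and 41.9 CPM in WT (0.10 ± 0.09, edgeR adjusted p = 0.31). RSM28 (YDR494W), a small subunit protein without a bacterial counterpart, had 101, 105, 102 and 98.7 CPM in cup1F8*, against 122, 106 and 99.2 CPM in WT (-0.15 ± 0.07, edgeR adjusted p = 0.098). In both genes the groups overlapped. The other genes not called were MRPL38 and, chosen after their values were seen, MRPL22 (0.08), MRPL23 (-0.10) and RSM23 (-0.02). RSM10 was called (-0.17 ± 0.06, edgeR adjusted p = 0.035), although its values overlapped, with 83.2, 83.7, 85.1 and 81.4 CPM in cup1F8*, against 95.4, 92.4 and 84.6 CPM in WT, and the call was lost in 6 of the 7 fits that left out a library. Across the 53 genes, the log2 fold change in cup1F8* had a Spearman correlation of -0.48 with GC content and 0.22 with coding length, and across all annotated genes of -0.28 and 0.06. These are descriptions over genes of the same 7 libraries. After the trends with GC content and length were removed, 43 genes were called lower and the median was -0.42. When libraries were scaled by their total counts alone, the median over all genes moved to 0.16, the mitochondrial ribosomal protein genes stayed 0.56 below it with 37 called lower and 2 higher, and the share of calls that were higher over all genes moved to 61.5%, against 49.6% with the main scaling. With gsh1Δ, which is set against the same WT libraries, 40 genes were called lower in both, an overlap that was not counted over all genes.

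H3A110Ccup1F8* was compared with cup1F8*, with 4 libraries of each. Of 53 genes, 43 were higher and 0 lower in H3A110Ccup1F8*, against 24.6% and 25.9% of all 5906 genes tested. The median log2 fold change was 0.31 (0.32 in the large subunit with 28 called, and 0.29 in the small subunit with 15 called), and the rises were 1.11-fold to 1.77-fold. In 40 of the 43 genes the 4 H3A110Ccup1F8* values lay above the 4 cup1F8* values. The largest estimate was that of MRPL38 (0.82 ± 0.26, edgeR adjusted p = 0.021), which rests on 20 to 36 counts in H3A110Ccup1F8* and 10 to 21 in cup1F8* per library. It was lost without replicate 2 of cup1F8* or replicate 4 of H3A110Ccup1F8* (edgeR adjusted p = 0.054 and 0.071). MRPL33 had 34.2, 38.3, 42.9 and 39.8 CPM in H3A110Ccup1F8*, against 22.7, 22.0, 28.3 and 26.7 CPM in cup1F8* (0.60 ± 0.10, edgeR adjusted p = 3.0e-04). MRPS35 (YGR165W), a small subunit protein without a bacterial counterpart, had 96.3, 108, 117 and 106 CPM in H3A110Ccup1F8*, against 66.9, 76.0, 73.1 and 67.0 CPM in cup1F8* (0.56 ± 0.07, edgeR adjusted p = 3.5e-05). In both genes every H3A110Ccup1F8* library was above every cup1F8* library.

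MRPL39, with the largest fall in cup1F8*, had 32.6, 35.0, 37.0 and 36.9 CPM in H3A110Ccup1F8*, against 21.5, 25.6, 26.8 and 26.1 CPM in cup1F8* (0.46 ± 0.08, edgeR adjusted p = 6.4e-04). RSM22 had 66.0, 58.6, 75.0 and 80.0 CPM in H3A110Ccup1F8*, against 55.4, 50.6, 54.8 and 40.04 CPM in cup1F8* (0.45 ± 0.11, edgeR adjusted p = 0.0058). Both genes rose in H3A110Ccup1F8* and stayed below the lowest WT value in all 4 of its libraries. RSM26 (0.42 ± 0.07), MRPL36 (0.45 ± 0.07) and RSM18 (0.34 ± 0.07) rose as well, and MRPL11 (0.18), MRPL16 (0.15) and MRPL25 (0.27) rose by less and lost their calls in 4, 4 and 3 of the 8 fits that left out a library. MRPL4 did not pass the test, with 129, 123, 121 and 124 CPM in H3A110Ccup1F8*, against 124, 134, 140 and 130 CPM in cup1F8* (-0.12 ± 0.05, edgeR adjusted p = 0.056), and was called lower without replicate 1 of either strain (edgeR adjusted p = 0.033 and 0.043). RSM10 (-0.03 ± 0.05) and MRPS16 (0.10 ± 0.05) were not called either. Of the 47 genes called lower in cup1F8*, 38 were called higher in H3A110Ccup1F8*. These 2 comparisons share the cup1F8* libraries with opposite sign, and the same overlap was not counted over all genes.

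The effect of H3A110C in cup1F8* was then tested against its effect in WT. By edgeR it was higher in cup1F8* for 14 of 53 genes (8 of the large and 6 of the small subunit) and lower for 0, against 8.36% and 7.79% of all 5954 genes tested, and DESeq2 called 19 higher. The median difference was 0.26. MRPL33 (0.54 ± 0.16, edgeR adjusted p = 0.028), RSM28 (0.49 ± 0.10, edgeR adjusted p = 0.0048) and MRPS35 (0.49 ± 0.11, edgeR adjusted p = 0.0071) differed most among those called. RSM28 had 135, 132, 148 and 141 CPM in H3A110Ccup1F8*, against 101, 105, 102 and 98.7 CPM in cup1F8*, and 108, 95.5 and 109 CPM in H3A110C, against 122, 106 and 99.2 CPM in WT. The first pair of groups is apart and the second overlaps. The count depended on single libraries. It was 5 without replicate 1 of cup1F8*, 6 without replicate 4 of cup1F8* or replicate 2 of H3A110C, 7 without replicate 1 of WT, 8 without replicate 3 of H3A110C and 9 without replicate 3 of H3A110Ccup1F8*. RSM28 and MRPS35 stayed called in all 14 of these fits, and MRPL33 was lost in 3 of them.

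The mean log2 CPM of each subunit was taken per library, with MRPL38 left out of the large subunit. In SCEG the large subunit mean was 6.14 ± 0.07 in H3A110Ccup1F8*, 5.81 ± 0.07 in cup1F8*, 5.96 ± 0.03 in H3A110Cgsh1Δ, 5.78 ± 0.01 in gsh1Δ, 6.38 ± 0.07 in H3A110C and 6.34 ± 0.04 in WT (SD over libraries). In SC it was 5.72 ± 0.04 in H3A110C and 5.74 ± 0.02 in WT. The small subunit mean was 6.43 ± 0.07 in H3A110Ccup1F8*, 6.11 ± 0.06 in cup1F8*, 6.23 ± 0.03 in H3A110Cgsh1Δ, 6.14 ± 0.07 in gsh1Δ, 6.64 ± 0.05 in H3A110C and 6.61 ± 0.03 in WT in SCEG, and 5.87 ± 0.05 in H3A110C and 5.88 ± 0.02 in WT in SC. In both subunits H3A110C and WT were highest in SCEG and not apart beyond their spread, followed by H3A110Ccup1F8* and H3A110Cgsh1Δ, and gsh1Δ and cup1F8* were lowest and likewise not apart. The large minus small difference lay between -0.30 and -0.26 in WT in SCEG, against -0.17 to -0.13 in WT in SC, and between -0.29 and -0.22 in H3A110C in SCEG, against -0.17 to -0.15 in H3A110C in SC. In both strains the ranges of the media did not overlap. In the other SCEG groups the difference lay between -0.30 and -0.28 in H3A110Ccup1F8*, between -0.32 and -0.29 in cup1F8*, between -0.27 and -0.26 in H3A110Cgsh1Δ and between -0.41 and -0.29 in gsh1Δ. The widest gap was thus that of gsh1Δ, whose range overlapped with that of WT and lay below that of H3A110Cgsh1Δ. No difference between the subunits was tested. Of the 11 genes with a neighbouring open reading frame, 10 belong to the large subunit, and their part in this difference was not tested.

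**Figure D5:**
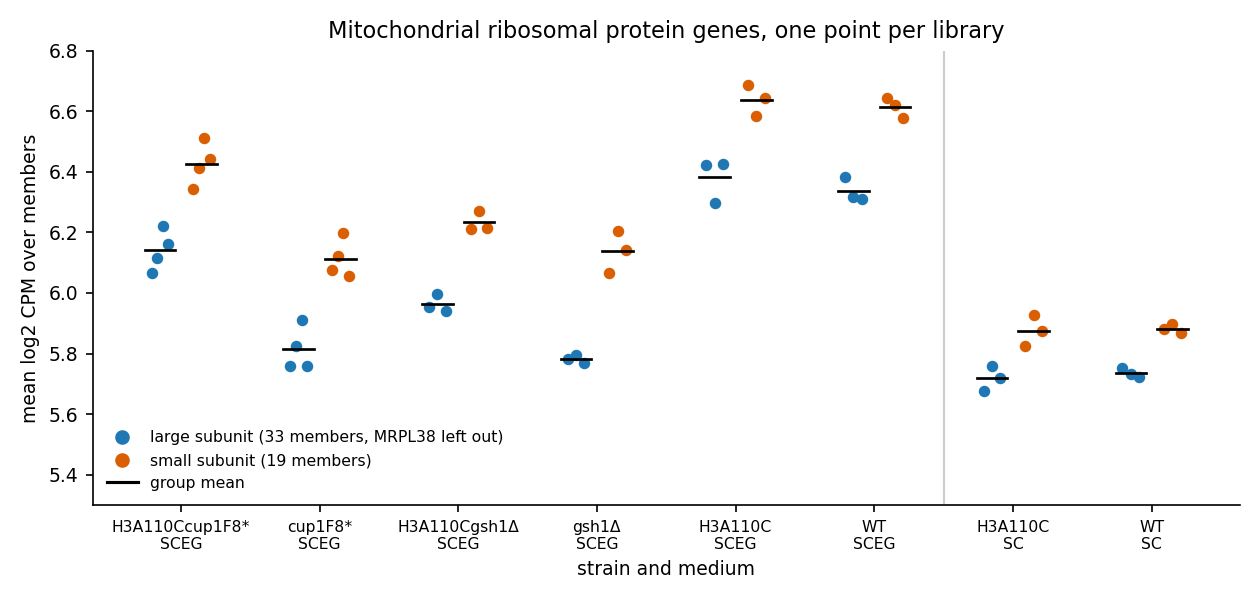
Mean log2 CPM over the large subunit genes without MRPL38 (blue) and the small subunit genes (orange) in each of the 26 libraries, by strain and medium (x axis), with 1 point per library and a line at each group's mean. SCEG is left of the grey line and SC right of it, and the 6 SC libraries are below or level with the lowest SCEG strains.

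Other genes of mitochondrial translation were given as lists, to be read against the 12.5% higher and 12.8% lower of all genes in gsh1Δ, 34.3% and 34.8% in cup1F8*, 24.6% and 25.9% in H3A110Ccup1F8* against cup1F8*, and 25.6% and 25.3% in SCEG against SC in WT. The 26 other mitochondrial ribosomal protein genes, named outside the MRPL, MRPS and RSM series, are given first. Of these, 22 were called higher in WT in SCEG and 1 lower (median 0.74), 18 were lower and 0 higher in gsh1Δ (median -0.48), 18 lower and 1 higher in cup1F8* (median -0.54) and 17 higher and 0 lower in H3A110Ccup1F8* against cup1F8* (median 0.23). EHD3, which is found with the small subunit, rose most in SCEG in WT (1.25), and MNP1, the counterpart of bacterial L7/L12, fell (-1.06). MRP13 of the small subunit fell most in cup1F8* (-1.09) and was higher in H3A110Ccup1F8* than in cup1F8* (0.59). Of 11 mitochondrial translation factors and membrane receptors of the ribosome, 10 were higher in SCEG in WT (median 1.15), 7 lower in gsh1Δ (median -0.55), 8 lower and 1 higher in cup1F8* (median -0.47) and 8 higher in H3A110Ccup1F8* against cup1F8* (median 0.29). The elongation factor gene MEF2 led in SCEG (2.10), and MBA1, which holds the ribosome at the inner membrane, rose by 0.80 in H3A110Ccup1F8*. Of 14 mitochondrial aminoacyl-tRNA synthetase genes, 11 were higher in SCEG in WT, 7 lower in gsh1Δ, 9 lower in cup1F8* and 11 higher in H3A110Ccup1F8*, with MSY1, the tyrosyl-tRNA synthetase, at 1.46 in SCEG and -0.73 in gsh1Δ. Of 10 translational activators of single mitochondrial mRNAs, 5 rose in SCEG in WT and 4 fell in gsh1Δ, and in cup1F8* 3 rose, CBS1 most (1.54), and 2 fell, shares below those over all genes in cup1F8*. Of 6 genes of ribosome assembly and rRNA modification, 1 rose in SCEG in WT (MRM2, 0.84), and 1 fell in gsh1Δ and 4 in cup1F8*, with MRM1, a methyltransferase of the large rRNA, at -0.31 and -1.09.

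Nuclear genes of the respiratory chain and ATP synthase, whose products combine with the proteins made on this ribosome, rose in SCEG in WT (33 of 33 higher, median 2.04) and fell in gsh1Δ (27 of 33 lower, 0 higher, median -0.64). In cup1F8* 17 were lower and 3 higher (median -0.18). SDH1 of complex II was the largest rise in SCEG (3.78). In cup1F8* CYC1, for cytochrome c, fell by 2.08 on the log2 scale. Of 138 cytosolic ribosomal protein genes, 0 were called higher in WT in SCEG and 131 lower (median -0.74), 1 of 133 tested was higher and 50 lower in gsh1Δ (median -0.28), and 2 of 135 tested were higher and 131 lower in cup1F8* (median -1.35), with 91 higher and 3 lower in H3A110Ccup1F8* against cup1F8* (median 0.18). The mitochondrial and cytosolic ribosomal protein genes thus had most of their calls in opposite directions between media, and in the same direction in gsh1Δ and in cup1F8*. PUF3 itself was higher in SCEG in WT (1.52 ± 0.10), lower in gsh1Δ (-0.71 ± 0.09) and in cup1F8* (-0.46 ± 0.07), and higher in H3A110Ccup1F8* than in cup1F8* (0.28 ± 0.05, all called by edgeR). HAP4, the activating subunit of the Hap complex, was higher in SCEG in WT (1.59), lower in gsh1Δ (-0.34, edgeR adjusted p = 0.046) and in cup1F8* (-0.43), and not called in H3A110Ccup1F8* (0.17, edgeR adjusted p = 0.19). Of the 5 genes for PUF3 and the Hap complex, 3 were called higher and 0 lower in SCEG in WT. In gsh1Δ 0 were higher and 2 lower, and 2 of the 5 estimates were above 0. In cup1F8* 1 was higher, HAP2, and 3 were lower, HAP3 most (-1.12). Whether any of these regulators has a part in the changes of the ribosomal protein genes was not tested.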

How the data were processed

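The authors aligned stranded poly-A reads to the sacCer3 (R64-1-1) genome with HISAT2 and counted them per open reading frame with featureCounts (versions not given in the sources used here), and deposited raw counts. These counts were used as deposited, by group labels. The methods state 4 independent experiments, while the groups have 3 or 4 libraries, and which library came from which experiment is not given in the sources used here. Each pair of groups was fitted alone with the quasi-likelihood test of edgeR 4.0.16 (limma 3.58.1, R 4.3.3), with TMM scaling, the default filter on low counts and Benjamini-Hochberg adjustment over all tested genes at 0.05. Interactions were fitted over 4 groups. Levels are CPM with TMM over all 26 libraries, and log2 CPM has a prior count of 2. Sequences, gene positions and the motif search used RefSeq R64, whose sequence is that of the build of the files. Figures were drawn with matplotlib 3.10.9 under Python 3.11.15.

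The members were chosen by their names, without use of a measured value, but like the gene lists with earlier results of these data known. Genes were named by a rule: in each comparison the 3 largest rises and 3 largest falls among called genes whose values do not overlap (or, with none called, the 2 largest changes), calls against the majority, the 3 largest of an interaction, the 3 highest and lowest levels per kb, 10 fixed members, the extremes of each other list, and GSH1, CUP1-1, CUP1-2, PUF3, HAP4 and MIC19. Same-numbered SCEG libraries did not deviate together in every pair (correlations of -0.13 to 0.31), so the numbers were not taken as pairs. SC libraries with the same letter in the count table did (0.54 to 0.85), and the letter as a block left 0 calls among the members in SC. Alternatives were DESeq2 1.42.0, its size factors, scaling by total counts, a prior count of 0.5, a minimum of 10 counts per library, 1 fit for all groups, the replicate number as a block, and leaving out each library. The removal of length and GC trends, the fits without the SC libraries of letter B and the SC letter block were chosen after seeing the data. The floor of 3 counts covers counting error only, while SEs and SDs include the spread between libraries. The scripts were tested on simulated counts.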

Additional observations from a re-analysis of the deposited data

Results flagged for a closer look

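In the 4 cup1F8* libraries, 1 value lay far from the other 3 for MRPS18 (gap over range of the CPM 0.841) and for MRPL44 (0.896), beyond the critical value of 0.829. Of 52 sets of 4 libraries tested, 2 were beyond it, and chance gives about 1 in 20.

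For 14 genes the effect of H3A110C in cup1F8* differed from its effect in WT by the edgeR interaction test. The log2 differences were 0.54 for MRPL33, 0.49 for RSM28, 0.49 for MRPS35, 0.43 for MRPL36, 0.42 for MRPL40, 0.41 for MRPL13, 0.40 for MRPL35, 0.38 for MRPL49, 0.38 for RSM25, 0.38 for MRPL39, 0.36 for RSM26, 0.34 for MRPL7, 0.28 for MRPS18 and 0.26 for MRPS9. The call of RSM26 was lost in 9 and that of MRPL36 in 4 of the 14 fits that left out a library.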

How the results depend on the processing

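Scaling by total counts moved the median of the 53 genes to 0.94 in WT and 1.05 in H3A110C (SCEG against SC) and to -0.40 in cup1F8* against WT, where it called 37 genes lower and 2 higher (MRPL25 and, chosen after its values were seen, MRPL22). It set the large subunit mean to 6.13 in H3A110Ccup1F8*, 5.79 in cup1F8* and 5.62 in gsh1Δ in SCEG and to 5.49 in H3A110C and 5.498 in WT in SC, and the small subunit mean to 6.56 in H3A110Ccup1F8* and 6.24 in cup1F8* in SCEG and to 5.65 in both strains in SC. DESeq2's size factors set the WT means in SC to 5.76 and 5.91, and a prior count of 0.5 set the large subunit mean of gsh1Δ to 5.57. These subunit means include MRPL38. One fit of all groups gave medians of 0.68 in WT and 0.78 in H3A110C between media and 7 genes higher in H3A110Cgsh1Δ. Requiring 10 counts in every library, which drops MRPL38 between media, left 1 gene lower in SCEG in WT and 1 in H3A110C (MRPL51 in both), and called 1 lower (MRPL4) in H3A110Ccup1F8* against cup1F8*. Removal of the length and GC trends gave a median of -0.42 in cup1F8* and turned RSM10 there to 0.0027, with an edgeR adjusted p of 0.97.

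With 1 library left out, the median ran between -0.063 and 0.033 for H3A110C against WT in SC, between 0.10 and 0.16 for H3A110Cgsh1Δ against gsh1Δ (0 to 2 genes higher, 0 to 1 lower) and between 0.038 and 0.14 for its interaction (0 to 1 lower). Of the genes, 0 to 1 were lower in H3A110Ccup1F8* against cup1F8*, and 5 to 18 were higher in the cup1F8* interaction. The calls kept their majority direction elsewhere, with 34 to 44 genes lower in gsh1Δ, 44 to 47 lower in cup1F8*, 38 to 44 higher in H3A110Ccup1F8* and 45 to 49 higher in SCEG in either strain. DESeq2 called 41 lower in gsh1Δ, 46 lower in cup1F8* and 43 higher in H3A110Ccup1F8*. The replicate number as a block gave 43 lower in gsh1Δ, 45 lower in cup1F8*, 41 higher in H3A110Ccup1F8*, 12 higher in the cup1F8* interaction and 0 in the other strain comparisons in SCEG, and it ended the named calls of MRPL16 in gsh1Δ and in H3A110Ccup1F8* (edgeR adjusted p = 0.068 and 0.064), RSM10 in cup1F8* (0.13) and RSM26 in the interaction (0.057). It could not be fitted between media, since the SC columns carry no numbers. The cause of these shifts was not tested.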
